A study of Mus musculus with 10 samples.

Results

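The cytosolic ribosomal protein genes were examined for peaks of the glucocorticoid receptor (GR), of lysine-specific demethylase 1 (LSD1) and of 2 histone marks in mouse skeletal muscle. Members were taken by symbol from the curated RefSeq messenger RNAs (NM entries) on the mouse genome build GRCm38. A member carried Rpl or Rps followed by a digit, or was Rplp0, Rplp1, Rplp2 or Rpsa. Ribosomal S6 kinases and pseudogenes were left out. The rule gave 89 of 21000 genes. Of these, 77 encode the core proteins, with 46 in the large and 31 in the small subunit. The other 12 symbols are paralogs, retrotransposed copies and binding proteins, namely Rpl3l, Rpl7l1, Rpl10l, Rpl22l1, Rpl32l, Rpl36al, Rpl37rt, Rpl39l, Rps19bp1, Rps23rg1, Rps27l and Rps27rt.

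Chromatin came from limb muscle of C57BL/6J mice, for which the labels give an age of 10 weeks and the text of the study a different one. Mice were either fed or starved for 24 h, and no gene was deleted. For each condition 1 chromatin immunoprecipitation sequencing (ChIP-seq) library was made with an antibody to GR, LSD1, histone H3 monomethylated at lysine 9 (H3K9me1) or dimethylated at lysine 9 (H3K9me2), and 1 from input chromatin, giving 10 libraries and 8 peak lists. Whether animals were pooled is not given in the sources used here. The library codes in the labels were the same for both GR libraries and the same for both LSD1 libraries. They differed between fed and starved for H3K9me1 and H3K9me2, so that a change of these marks and a change of code cannot be told apart. The file names listed by the study give every library its own number, also for GR and LSD1. A change between conditions and one between libraries thus cannot be told apart for any antibody.

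Ribosomal proteins join the ribosomal RNAs to form the ribosome, and their messenger RNAs are among the most abundant in any growing cell. Many of these messengers begin with a cytosine followed by a run of pyrimidines, the terminal oligopyrimidine (TOP) start, through which the kinase mTOR sets their translation according to nutrients. Glucocorticoids rise during starvation and, through GR, shift muscle from protein synthesis towards protein breakdown. LSD1 removes methyl groups from histone H3 and can act as a partner of GR. The comparison asked which ribosomal protein genes carried GR and LSD1 peaks when mice were fed and when they were starved.

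The 8 lists held between 6624 and 171402 peaks, and how deeply each library was sequenced is unknown. GR gave 14108 peaks when fed and 37783 when starved, and LSD1 gave 16616 and 66332, so that a longer starved list gives every gene more chances of a peak. The length of the LSD1 starved list is not the one given in the text of the study, and whether it is the list the study used is not known, so that all LSD1 starved values hold for the deposited list only. Each list came from 1 library, so conditions were not tested against each other, and all counts describe these libraries. The tissue was checked through promoter peaks, since no expression was measured. Of 10 genes of the muscle contractile and metabolic apparatus, between 7 and 9 had a promoter peak in each GR and LSD1 list. Of 16 genes of endothelium, immune cells, fibroblasts and other tissues, 1 had one in these lists, namely Pecam1 in LSD1 starved, at a fold enrichment of 4.15. In H3K9me2 fed, 4 of the 10 muscle genes had a promoter peak, as did Pdgfra and Dcn among the fibroblast genes.

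Promoter peaks were those with a midpoint no more than 1000 bp before or 100 bp after a transcription start site (TSS). At least 1 GR or LSD1 list had such a peak at 73 of the 89 ribosomal protein genes, or 82.0%, against 41.7% of all NM genes. GR was found at 22 member promoters in fed muscle, or 24.7%, where 15.1% of all NM genes were called. In starved muscle GR was found at 41, or 46.1%, against a background of 26.0%. LSD1 was found at 52 members in fed muscle, or 58.4%, against 25.4% of all NM genes. In starved muscle LSD1 was found at 32 members, or 36.0%, against 18.0%. Thus the member count was higher in the starved than in the fed list for GR and lower for LSD1. When the GR lists were limited to the same number of peaks, the strongest by q-value, 22 members were called in each condition, with a background of 15.1% in fed and 13.7% in starved muscle. For LSD1 the same limit left 52 fed and 16 starved members, or 18.0% in starved muscle, against 7.55%.

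The core genes were called at higher shares than the 12 other symbols. Of the 77 core genes, 21 had a GR peak in fed and 39 in starved muscle, or 27.3% and 50.6%. An LSD1 peak was found at 48 in fed and 30 in starved muscle, or 62.3% and 39.0%. The 12 other symbols gave 1, 2, 4 and 2 genes in the same order of lists, or 8.33%, 16.7%, 33.3% and 16.7%. All NM genes had shares of 15.1%, 26.0%, 25.4% and 18.0%. Both subunits were represented. In LSD1 fed, 27 of 46 large subunit and 21 of 31 small subunit genes were called, or 58.7% and 67.7%. In GR starved, the numbers were 22 of 46 and 17 of 31, or 47.8% and 54.8%.

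Counts were smaller at a q-value of 0.01 or less, the false discovery rate named in the study's methods. At this limit 10 members had a GR peak in fed and 19 in starved muscle, against 9.03% and 12.7% of all NM genes, which corresponds to 11.2% and 21.3% of the members. For LSD1, 24 members remained in fed muscle, or 27.0%, against 11.8%. In starved muscle 7 remained, or 7.87%, against 3.39%. Thus at this limit the member share in GR fed was close to that of all genes.

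Other housekeeping gene families were set beside the members as well, since many genes are not used in any given tissue. Gene use was not measured in these lists, and its part in the shares was not tested. Of 78 mitochondrial ribosomal protein genes, which encode the ribosome of the organelle and not that of the cytosol, 22 had a GR promoter peak in fed and 35 in starved muscle, or 28.2% and 44.9%. Of 40 proteasome subunit genes, 9 and 15 were called, or 22.5% and 37.5%. In fed muscle these shares lay on both sides of the 24.7% of the cytosolic family, and in starved muscle both were below its 46.1%. For LSD1 in fed muscle 44.9% of the mitochondrial ribosomal and 45.0% of the proteasome genes were called, below the 58.4% of the cytosolic family. In starved muscle the LSD1 shares were 28.2% and 27.5%, against 36.0%. Differences between the families were not tested.

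**Figure D1:**
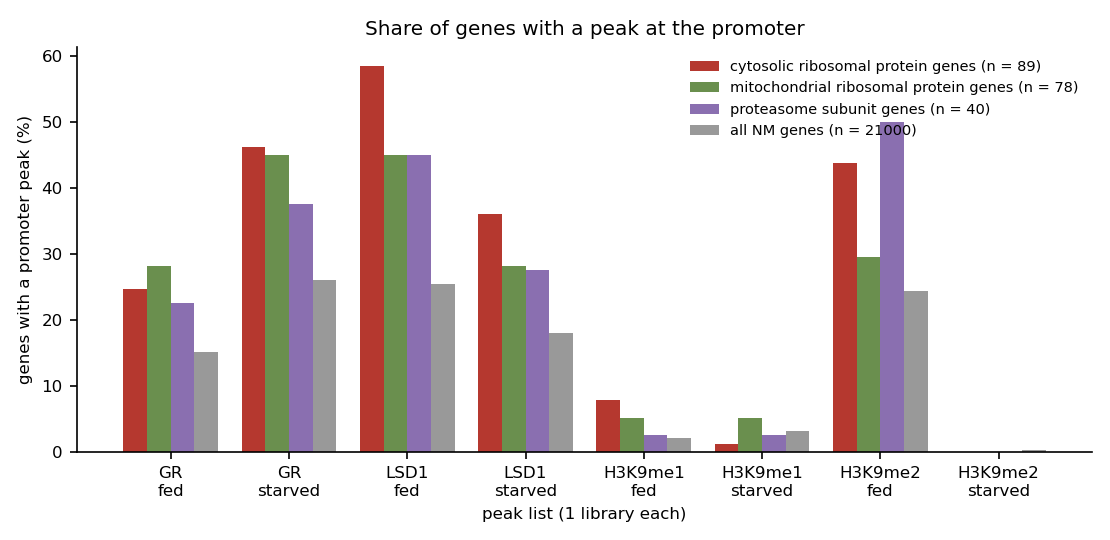
Share of genes (%, vertical axis) with a promoter peak in each of the 8 peak lists (horizontal axis, 1 library each), for the 89 cytosolic ribosomal protein genes, 78 mitochondrial ribosomal protein genes, 40 proteasome subunit genes and all 21000 NM genes. The cytosolic family had its largest share in LSD1 fed (58.4%) and no promoter peak in H3K9me2 starved.

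The peaks lay close to the TSS. The midpoint of the strongest promoter peak was within 100 bp of the TSS at 15 of 22 members in GR fed and at 23 of 41 in GR starved, or 68.2% and 56.1%. Over all NM genes with a peak these shares were 45.6% and 47.4%. For LSD1 the shares were 63.5% and 68.8% of the called members in fed and starved muscle, against 55.9% and 50% of all called genes. At the position with the highest coverage, 50 bp upstream of the TSS, a GR peak covered 20.2% of the members in fed and 41.6% in starved muscle. The corresponding values for all NM genes were 10.2% and 21.0%. An LSD1 peak covered the TSS itself at 53.9% of the members in fed and 25.8% in starved muscle, against 15.4% and 7.86%. The folds, by contrast, were ordinary. The median fold of the called members was 2.99 and 2.71 in GR fed and starved, against 3.04 and 2.72 over all called genes. In LSD1 fed and starved it was 3.96 and 3.51, against 4.0 and 3.46. Members were thus called more often than genes at large, but not at higher folds.

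**Figure D2:**
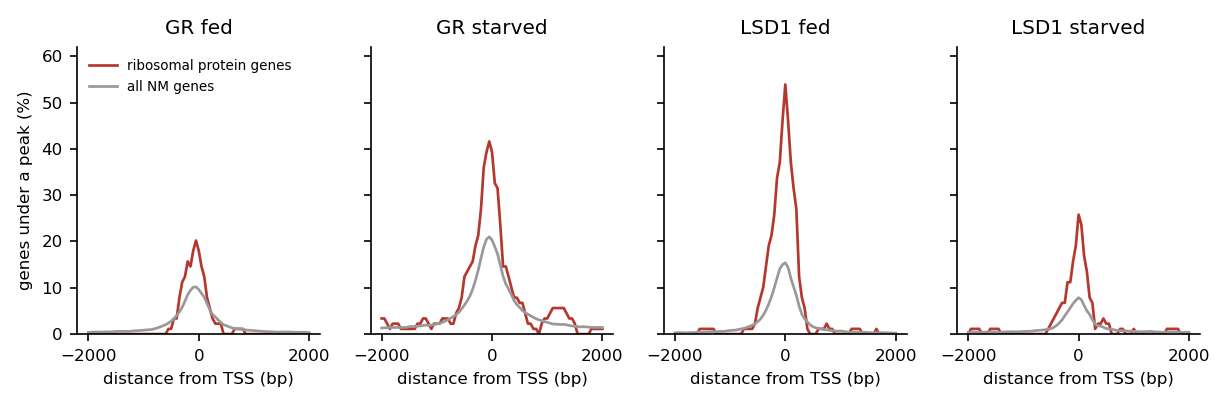
Share of genes (%, vertical axis) whose position at a given distance from the TSS (bp, horizontal axis, upstream to the left) lay under a peak, for the 89 ribosomal protein genes and all 21000 NM genes with 1 TSS per gene. In LSD1 fed 53.9% of the ribosomal protein genes were covered at the TSS, against 15.4% of all genes.

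Rpl3l had the strongest GR promoter peak of the family in both conditions. Rpl3l encodes the striated muscle paralog of Rpl3, a large subunit protein next to the site of peptide bond formation. The fold enrichment was 8.35 in fed muscle (q-value 1.15e-35), at rank 5 of the 3171 genes with a GR fed promoter peak, and 5.1 in starved muscle (q-value 5.81e-16), at rank 22 of 5462. This peak lay at chr17:24732530-24732900 in fed muscle, over the second annotated TSS of the gene at position 24732685, and its starved counterpart extended from 24732432 to 24733003. A weaker GR peak was found at the upstream TSS at position 24727826, with a fold of 3.05 in fed and 3.86 in starved muscle. LSD1 had peaks at both start sites in fed muscle, at folds of 3.87 and 3.72, and at neither in starved muscle. The sequence around both start sites is shown because neither begins with the pyrimidine run of a TOP messenger. The first comes from the RefSeq promoter table and the second from the GRCm38 genome, with the start base in capitals.
Rpl3l upstream TSS, chr17:24727811-24727840, plus strand: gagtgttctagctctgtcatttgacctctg
Rpl3l second TSS, chr17:24732670-24732699, plus strand: gtcatcaacagctacAgtgccccaaatgtc
Rpl3, the ubiquitous gene of the pair, had no GR peak in fed muscle. In starved muscle its GR peak had a fold of 2.32, the lowest of the 41 members called there. LSD1 was found at Rpl3 in both conditions, at folds of 4.05 in fed and 3.8 in starved muscle. Thus the GR folds were higher at the muscle paralog, while LSD1 in starved muscle was found at Rpl3 and not at Rpl3l.

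The other number-sharing pairs did not show one pattern. Rpl22 had GR in starved muscle at a fold of 3.47 and LSD1 in fed muscle at 4.27, whereas its paralog Rpl22l1 had LSD1 in both conditions, at 4.21 and 3.15, and no GR. Rpl7 had GR in starved muscle at 2.81 and LSD1 in fed muscle at 4.33, and Rpl7l1 had LSD1 in fed muscle at 3.57. Rpl36a had LSD1 in fed muscle at 3.97, and Rpl36al had it in fed and in starved muscle at 3.84 and 3.27. Rps27 and Rps27l both had GR in starved muscle, at 2.4 and 2.36, and neither had LSD1. The promoters of Rpl10l, Rpl32l and Rpl39l had none of these peaks. Their partners had LSD1 in 1 list each, with Rpl10 at 4.27 and Rpl39 at 4.54 in starved and Rpl32 at 4.23 in fed muscle.

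After Rpl3l, the highest GR folds in fed muscle were those of Rpl15 at 4.81, Rpl27 at 4.34 and Rpl37a at 4.01, all of the large subunit, and of Rps7 at 3.38. In starved muscle Rpl27 and Rpl15 again followed Rpl3l, at 4.42 and 4.25, before Rpl22 at 3.47 and Rps16 at 3.37. Rpl15 shares its promoter window with the TSS of Nkiras1, so that its peaks cannot be assigned to 1 of the genes. Rpl27 had no LSD1 promoter peak in either condition. The lowest GR folds in fed muscle were those of Rpl36 at 2.6, Rps23 at 2.61, Rpl41 at 2.69 and Rpl10a at 2.7. With 1 library per condition, the order of members with similar folds has no replicate check.

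LSD1 in fed muscle had its highest folds at Rps29 with 5.52, Rps3 with 4.97, Rpl37 with 4.95, Rpl15 with 4.64 and Rpl35a with 4.57. Rps3, at the entry of the messenger RNA channel of the small subunit, reached rank 198 of 5337 genes called. The lowest folds were 3.53 at Rpl36, 3.56 at Rpl13a, 3.57 at Rpl7l1, 3.59 at Rpsa and 3.6 at Rps23. In starved muscle other members led, namely Rps10 at 4.59, Rpl39 at 4.54, Rps18 at 4.31, Rpl10 at 4.27 and Rpl34 at 4.07. Of these 5, Rps10, Rps18 and Rpl34 also had a peak in fed muscle. The peaks of Rps10 and Rpl10 in starved muscle were 49 bp long, the shortest length in that list.

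The stalk proteins Rplp0, Rplp1 and Rplp2 form the flexible arm of the large subunit that receives elongation factors. All 3 genes had LSD1 or GR at the promoter, but in different lists. Rplp0 had GR in starved muscle at 2.49 and LSD1 in fed muscle at 3.79. Rplp1 had LSD1 in fed muscle at 3.72. Rplp2 had GR and LSD1 in starved muscle, at 2.91 and 3.45. Rpsa, a small subunit protein also known as a laminin receptor, had GR in starved muscle at 2.76 and LSD1 in both conditions, at 3.59 and 3.06.

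GR and LSD1 were found together at 16 member promoters in fed muscle, or 18.0%, against 10.6% of all NM genes, and at 19 in starved muscle, or 21.3%, against 10.4%. Of the 22 GR promoters in fed muscle 72.7% also had LSD1, close to the 69.9% among all genes with GR. Of the 52 LSD1 promoters 30.8% had GR, against 41.6% among all genes with LSD1. In starved muscle 46.3% of the GR promoters had LSD1 and 59.4% of the LSD1 promoters had GR, against 40.0% and 57.7%. Where both were present, the peaks overlapped by at least 1 bp at 15 of the 16 members in fed muscle, or 93.8%, against 90% of all such NM genes. In starved muscle they overlapped at 17 of the 19, all but Rpl9 and Rps25, or 89.5%, against 84.6%. Rpl15, Rpl37, Rps12 and Rps21 had both proteins in both conditions. This made 4.49% of the members, near the background of 4.69%.

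GR peaks were kept from fed to starved muscle at 15 members, against a background of 11.0% of all NM genes, and at each of these the fed and the starved peak overlapped. Another 26 members were called in starved muscle only, against 15%, and 7 in fed muscle only, against 4.13%. The 7 were Rpl4, Rpl5, Rpl29, Rpl36, Rps3a1, Rps23 and Rps28. For LSD1, 22 members were called in both conditions, against 10.8%. The fed list alone had 30, against 14.6%, and the starved list alone 10, against 7.17%. The 10 were Rpl10, Rpl11, Rpl23, Rpl28, Rpl39, Rplp2, Rps4x, Rps19, Rps20 and Rps26. At 16 members LSD1 was present in fed muscle and GR appeared in the starved list only, against 7.35% of all NM genes. Among them were Rpl3, Rplp0, Rps2, Rps16 and Rpsa. Of the GR fed members 68.2% were called again in starved muscle, and of the LSD1 fed members 42.3%. Over all NM genes these shares were 72.6% and 42.7%.

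Folds were compared at promoters called in both conditions. They are given over the input of each library and were not scaled between libraries, so that they are read beside the same ratio over all genes. The starved to fed ratio of the GR fold had a median of 0.9 over 15 members, with a range from 0.611 to 1.17. Over 2303 NM genes the median was 0.908. Rpl3l had the lowest ratio, 0.611, followed by Rpl37a at 0.691 and Rps7 at 0.785, while Rps21 and Rpl27 were above 1, at 1.1 and 1.02. The highest value, 1.17 at Rpl41, compared peaks that did not overlap, and with the overlapping starved peak, at a fold of 2.61, the ratio was 0.972. Over overlapping peaks, with only the pair of the highest fed fold taken per gene, the median remained 0.9 and the highest ratio was 1.1. The weaker overlapping pair of Rpl3l, at its upstream TSS, was not used. Its fold was higher in starved than in fed muscle, 3.86 against 3.05. For LSD1 the median was 0.854 over 22 members, with a range from 0.568 to 1.17, and 0.871 over 2278 NM genes. Rps29 had the lowest value, 0.568, followed by Rpl37 at 0.657. Only Rps18, Rps10 and Rpl34 were above 1. The medians of the family followed those of all genes for both proteins.

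**Figure D3:**
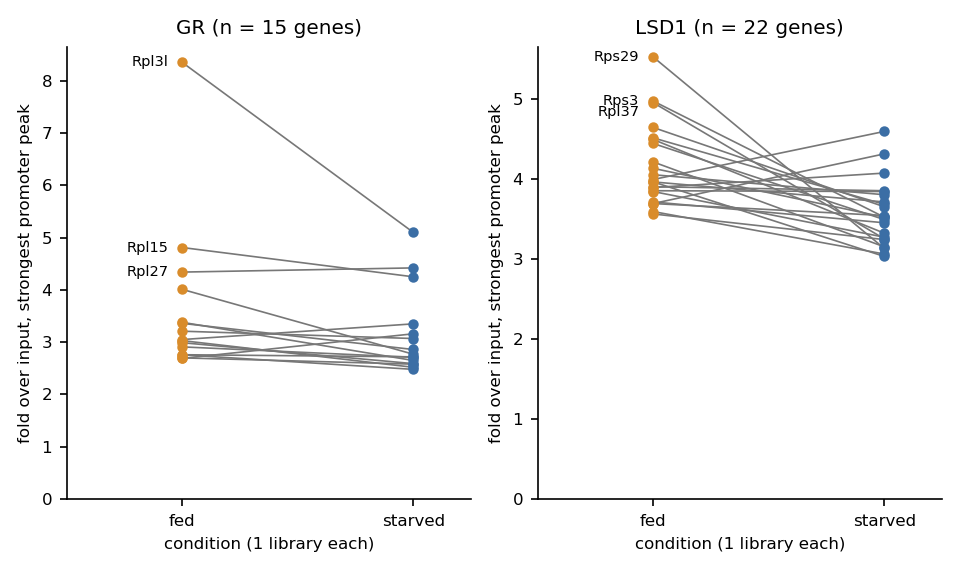
Fold enrichment over input of the strongest promoter peak (vertical axis) in fed and starved muscle (horizontal axis, 1 library each) for the ribosomal protein genes called in both conditions, 15 for GR and 22 for LSD1. Each line joins 1 gene; Rpl3l went from 8.35 to 5.1 for GR and Rps29 from 5.52 to 3.13 for LSD1.

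At 16 members no GR or LSD1 list had a promoter peak, or 18.0%, against 58.3% of all NM genes. They included 9 core genes, among them Rpl14, Rpl17, Rpl19, Rpl21, Rpl23a, Rpl24, Rps6 and Rps13, and 7 of the 12 other symbols, Rpl10l, Rpl32l, Rpl37rt, Rpl39l, Rps19bp1, Rps23rg1 and Rps27rt. Rps6 encodes the small subunit protein that is phosphorylated by the S6 kinases downstream of mTOR. The share of 50-base stretches of the promoter windows that occur once in the genome, which limits what uniquely mapped reads of 50 bases can show, had a median of 99.0% over these 16 members and was at least 88.2%. Over all 89 members the median was 99.0% and the lowest value 75.2%.

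The H3K9 marks were sparse at these promoters, apart from H3K9me2 in fed muscle. H3K9me2 fed had a promoter peak at 39 members, or 43.8%, against 24.4% of all NM genes, 29.5% of the mitochondrial ribosomal and 50% of the proteasome genes. In H3K9me2 starved no member was called, at a background of 0.19%, in a list of 6624 peaks. When the fed list was limited to as many peaks, the strongest by q-value, 1 member was called, or 1.12%, the same as the share of all NM genes. The H3K9me2 fed peaks had a median length of 175 bp and a median position 228 bp upstream of the TSS, farther away than those of GR and LSD1. Over all NM genes called in this list the median position was similar, 234 bp upstream. Of the 52 LSD1 fed members 28 also had H3K9me2 in fed muscle, or 53.8%, against 44.2% of all genes with LSD1. Both were present at 31.5% of the members, against 11.2% of all NM genes, and the peaks overlapped at 17 of the 28, or 60.7%, near the 61.3% of all such genes. At a q-value of 0.01 or less, 6 members had H3K9me2 in fed muscle, or 6.74%, near the background of 6.0%. H3K9me1 had a promoter peak at 7 members in fed muscle, or 7.87%, against 2.08%. These were Rpl5, Rpl6, Rpl9, Rpl11, Rpl30, Rps19 and Rps29. In starved muscle it had one at Rpl35a alone, at a fold of 3.23 and a q-value of 0.0581, against a background of 3.2%. Rpl5 and Rpl11, which can bind the p53 regulator Mdm2, were called at folds of 3.65 and 4.7. The peaks were 49 bp long at Rpl5, Rpl6, Rpl11, Rpl30 and Rps19, the shortest length in that list.

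Rps29 requires a caution. Its promoter had the highest H3K9me2 fed fold of all 5115 genes called, 11.7 (q-value 2.78e-55), and the third highest H3K9me1 fed fold of 436, 5.58 (q-value 5.29e-13), at rank 3. The H3K9me2 peak at chr12:69159295-69159366 was 72 bp long and enclosed the H3K9me1 peak of 62 bp. LSD1 fed, LSD1 starved and GR starved also had peaks there, at folds of 5.52, 3.13 and 2.74, and GR fed had none. Of the 50-base stretches that touch these peaks, few occur once in the genome. The share was 38.8% for H3K9me2 fed, 36.9% for H3K9me1 fed, 45.3% for LSD1 fed, 2.85% for LSD1 starved and 59.8% for GR starved. At the strongest peaks of Rpl3l and Rps3 it was 100%. Whether repeated sequence plays a part in the Rps29 values was not tested. Over the 80 members with at least 90% such stretches, a measure chosen after the data were seen, LSD1 fed was found at 48, or 60.0%, against 27.4% of all such NM genes, and GR starved at 35, or 43.8%, against 28.1%.

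Sequence features were counted in the RefSeq promoter table (GRCm38.p6), from 250 bases upstream to 50 bases downstream of the TSS, on both strands. An entry was matched for 69 members and for 16835 NM genes. Among the members without one were Rpl3, Rpl7, Rpl8, Rpl17, Rpl21, Rpl23a, Rpl29, Rpl30, Rpl32, Rpl36, Rplp1, Rps14, Rps20, Rps27a and Rps29. The ETS core CCGGAAG was present in 25 of 69 member promoters, or 36.2%, against 12.2% of all promoters. The GC box GGGCGG was present in 39, or 56.5%, against 47.5%. The YY1 motif AAGATGGCG was found in 4 and the NRF1 core GCGCATGCG in 3, or 5.8% and 4.35%, against 2.04% and 2.49%. The TATA box TATAAA was found in 8, or 11.6%, against 13.3%. The glucocorticoid response element, searched as AGAACA and TGTTCT spaced by 3 bases with at most 1 mismatch, was found in no member promoter and in 0.172% of all promoters. The median GC content was 57.0%, against 56.7%, and the ratio of observed to expected CpG was 0.857, against 0.591.

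A pyrimidine start, defined as a C followed by at least 5 pyrimidines and beginning within 5 bases of the annotated TSS, was present at 28 of 69 members, or 40.6%, against 10.1% of all promoters. For starts within 2 and within 10 bases the member shares were 31.9% and 49.3%, against 5.53% and 19.6%. The annotated TSS was used, and whether muscle starts transcription there was not measured. The windows below run from 15 bases before to 14 after the start base. Capitals mark the counted run, from the C nearest the start base that meets the definition. Pyrimidines directly before that C remain in lower case and are not part of the run lengths given. Rpl15 and Rps10 are shown as TOP starts with GR and LSD1 peaks, Rpl27a for its run of 17 bases, of which the last lies beyond the window, and Rps6 as a TOP start without a GR or LSD1 peak. Rplp0, Rpsa and Rpl27 had peaks and no such run at the annotated TSS, which does not show that their messengers lack a TOP start.
Rpl15, chr14:18270972-18271001, minus strand: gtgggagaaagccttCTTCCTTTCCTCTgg
Rps10, chr17:27635230-27635259, minus strand: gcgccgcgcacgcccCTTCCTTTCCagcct
Rpl27a, chr7:109519180-109519209, plus strand: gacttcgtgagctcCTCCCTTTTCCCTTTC
Rps6, chr4:86857353-86857382, minus strand: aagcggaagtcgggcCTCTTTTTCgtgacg
Rplp0, chr5:115559452-115559481, plus strand: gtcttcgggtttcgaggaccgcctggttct
Rpsa, chr9:120127751-120127780, plus strand: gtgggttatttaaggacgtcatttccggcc
Rpl27, chr11:101442230-101442259, plus strand: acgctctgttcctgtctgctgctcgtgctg
The run of Rpl15 was 13 bases long, that of Rps10 was 10 and that of Rps6 was 9. LSD1 in fed muscle was found at 16 of the 28 members with a pyrimidine start and at 23 of the 41 without, or 57.1% and 56.1%. GR in fed muscle was found at 3 and 13, or 10.7% and 31.7%. In starved muscle GR was found at 14 and 18, or 50% and 43.9%. Over all promoters the shares with and without it were 14.2% and 15.8% in GR fed and 26.3% and 27.0% in GR starved. The GR fed split of the members rests on 3 genes with such a start and was not tested. Of the 25 members with the ETS core, 17 had GR in starved muscle, or 68.0%, against 15 of 44 without it, or 34.1%. Over all promoters these shares were 43.1% and 24.7%. In LSD1 fed the members with and without the ETS core had similar shares, 56.0% and 56.8%, whereas over all promoters they were 44.2% and 23.7%. In LSD1 starved the member shares were 56.0% and 34.1%, and over all promoters 28.7% and 17.2%. In GR fed they were 24.0% and 22.7%, and over all promoters 24.3% and 14.4%. The ETS splits were not tested.

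**Figure D4:**
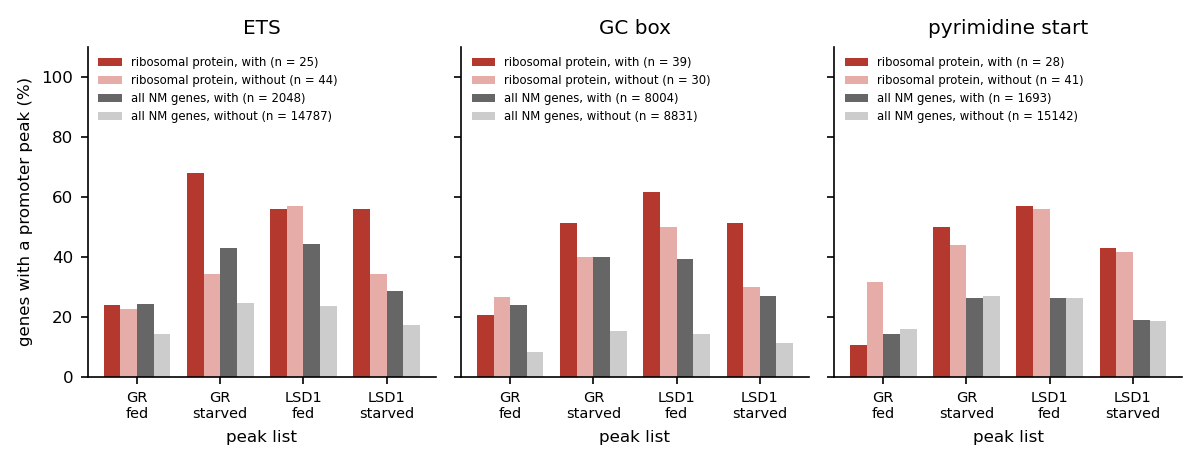
Share of genes (%, vertical axis) with a promoter peak in the 4 GR and LSD1 lists (horizontal axis), split by the presence of the ETS core, the GC box or a pyrimidine start, for ribosomal protein genes and all NM genes with a promoter entry. In GR starved 68.0% of the ribosomal protein genes with the ETS core were called, against 34.1% of those without. In LSD1 starved the shares were 56.0% and 34.1%.

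Within the promoter peaks of members, no GRE-like sequence was found in GR fed, GR starved, LSD1 fed or LSD1 starved, among 23, 43, 54 and 33 peaks. Over the promoter peaks of all NM genes the share was 0.403% in GR fed and lower in the other lists. The NRF1 core was found in 1 GR fed peak, 2 GR starved peaks and 2 LSD1 fed peaks. The 4 sites are shown with the core in capitals on the plus strand of GRCm38, since NRF1 is the promoter factor that the study discussed. The site of Rpl10a lay under both a GR starved and an LSD1 fed peak, at folds of 2.58 and 3.88.
Rpl5, GR fed: tacatactGCGCATGCGtacgtgac
Rpl37a, GR starved: ctaaaaccGCGCATGCGcattgcgt
Rpl10a, GR starved and LSD1 fed: ctatttgaGCGCATGCGcaaagcgc
Rpl7, LSD1 fed: gaaaggtgGCGCATGCGcactgtct
The cores of these sites began at positions 107900549 on chromosome 5, 72711267 on chromosome 1, 28328561 on chromosome 17 and 16104410 on chromosome 1. In LSD1 fed the core was present in 3.7% of the member peaks and in 3.25% of the promoter peaks of all NM genes. The shares were 4.35% against 3.9% in GR fed and 4.65% against 4.25% in GR starved, so that members were near the background. In LSD1 starved no member peak had the core, against 2.17%.

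Peaks were also common in the surroundings of the family, which lies in gene-dense regions. Members had a median of 2 other NM genes within 30 kb of a TSS, against 1 for all NM genes, and a median gene length of 3.14 kb, against 16.7 kb. A peak within 30 kb was found at 57 members in GR fed, or 64%, against 42.2%, and at 78 in GR starved, or 87.6%, against 65.2%. LSD1 had one at 80 members in fed and 79 in starved muscle, or 89.9% and 88.8%, against 51.5% and 81.8%. H3K9me1 had one at 39.3% and 65.2%, against 33.6% and 61.6%, and H3K9me2 at 97.8% and 1.12%, against 95.1% and 7.45%. When promoter peaks of any gene were left out and the nearest TSS had to be that of the member, GR was found at 13 members in fed muscle, or 14.6%, against 18.4% of all NM genes. In starved muscle this gave 43 members, or 48.3%, against 41.7%. LSD1 was found at 23 members in fed and 35 in starved muscle, or 25.8% and 39.3%, against 20.1% and 58.1%.

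The strongest GR peaks outside promoters lay upstream of Rpl29, a large subunit gene whose own promoter had a GR peak in fed muscle only, at a fold of 3.01. In fed muscle a peak at chr9:106413531-106413965, at -15.7 kb from the TSS with upstream negative, reached a fold of 8.02 (q-value 1.47e-42). A further one at chr9:106406563-106406847, at -22.7 kb, reached 6.74. In starved muscle the first had a fold of 6.44, and LSD1 overlapped it in fed muscle at 4.58 and also in starved muscle. A peak at -23.9 kb had the highest LSD1 fed fold of this kind, 7.27. The annotation places these sites in introns of the predicted gene Gm33616, the first 2 also in an intron of Gm46131. They are assigned to Rpl29 by distance alone. The next GR fed peaks were 5.79 kb downstream of the TSS of Rps14 at a fold of 5.61, 11.7 kb downstream of Rps6 in an intron of Dennd4c at 5.42, and 11.5 kb downstream of Rpl14 at 4.49. All 3 were overlapped by a GR starved peak. Rps6 and Rpl14, which had no GR or LSD1 peak at the promoter, thus had GR peaks at a distance.

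Genes that act with the ribosomal proteins were counted in the same way. Fau and Rack1, which encode ribosomal proteins outside the naming rule, had LSD1 in fed muscle at folds of 3.75 and 4.37. Of 16 genes of elongation factors and other TOP messengers, 7 had GR in fed muscle, or 43.8%, against 24.7% of the members, and 8 had it in starved muscle. LSD1 was found at 10 in fed and 5 in starved muscle. Eef1a1, which delivers transfer RNAs to the ribosome, and Eef2, which moves it along the messenger, had LSD1 in fed muscle at 4.2 and 3.89. Of 17 ribosome biogenesis genes, 6 had GR in fed and 9 in starved muscle, or 35.3% and 52.9%, and 9 and 8 had LSD1, or 52.9% and 47.1%. Of 13 regulators of ribosomal protein genes, 4 had GR in fed and 10 in starved muscle, or 30.8% and 76.9%. Of the members, 24.7% and 46.1% had it. LSD1 was found at 9 in fed and 6 in starved muscle, or 69.2% and 46.2%. Over all NM genes the shares were 15.1% and 26.0% for GR in fed and starved muscle, and 25.4% and 18.0% for LSD1. These gene lists are short, and their shares were not tested. Mtor had GR and LSD1 in fed muscle, at 3.0 and 4.13, and neither in starved muscle. Rps6kb1, which phosphorylates Rps6, had GR in starved muscle at 3.09 and none of the other 3. Larp1, which binds TOP messengers, had GR in starved muscle at 2.59 and LSD1 in fed and starved muscle at 4.29 and 3.58. Eif4ebp1, a repressor of translation that mTOR inactivates, had LSD1 in fed muscle at 4.76 and no GR.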

How the data were processed

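Peaks of GR, LSD1, H3K9me1 and H3K9me2 were taken from 8 peak lists of fed and starved limb muscle, 1 library each. Per the study's methods, the authors aligned single-end reads of 50 bases to mm10 with Bowtie, kept unique reads, discarded reads falling in a human (hg38) blacklist, and called broad peaks with MACS2 against input. The deposited peak names carry Bowtie2. The deposited lists give a fold enrichment over input, a −log10 p-value and a −log10 q-value per peak, and a score column deposited by the authors was not used. The methods name a false discovery rate of 0.01, while the lists extend to q-values between 0.0925 and 0.0998. The number of reads per library is not given in the lists, so no depth was derived, and the length of the lists limits what can be seen.

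NM TSSs came from the RefSeq annotation of GRCm38. A peak midpoint up to 1000 bp before or 100 bp after a TSS counted as at the promoter, and one up to 30 kb away as near. Counts were set beside those of all NM genes, with no test, since each condition had 1 library and genes are not replicates. Python 3.11.15, numpy 2.4.6, pandas 2.3.3, scipy 1.17.1 and matplotlib 3.10.9 were used, and the assignment of peaks was tested on simulated data. The members and gene lists were chosen with earlier results of these data known. Named were the 5 highest and 5 lowest folds in GR fed and LSD1 fed, members without GR or LSD1 (the first 10 by symbol), paralog pairs, stalk genes, Rps6, members with H3K9me1 or H3K9me2 in starved muscle, and the 5 strongest GR peaks outside promoters. All other genes named, the sequence examples other than those of these genes, and the uniqueness of 50-base stretches were chosen after values were seen. Alternatives were stricter q-values, equal list lengths, other windows and nearest-gene assignment. Results that need some of the genes are not reported here by name, though the counts include them.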

Additional observations from a re-analysis of the deposited data

Results flagged for a closer look

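The number of ribosomal protein genes with a promoter peak moved in opposite directions for GR and LSD1. Starved minus fed was 19 for GR, from 22 to 41 genes, and -20 for LSD1, from 52 to 32. All NM genes moved the same way, from 3171 to 5462 for GR and from 5337 to 3784 for LSD1, so that this is not particular to the family. The difference between GR and LSD1 was not tested, since each count came from 1 library. At a q-value of 0.01 or less the counts went from 10 to 19 for GR and from 24 to 7 for LSD1. With lists of equal length they were 22 and 22 for GR, so that no direction was left, and 52 and 16 for LSD1. Over all NM genes equal lengths gave 15.1% and 13.7% for GR and 25.4% and 7.55% for LSD1. The GR and LSD1 libraries carried different codes in the labels, and the part of this in the difference was not tested.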

How the results depend on the processing

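Of 126 alternative values 85 moved little and 41 moved. Counts were labelled only by the size of their change. A reversal could be recorded only for the medians of the fold ratios, where there were 0. The cause of the changes was not tested beyond what each setting removes by construction. No paired analysis was possible because each group had 1 library and no replicate numbers. With q-values of at most 0.01, promoter counts were 10 (GR fed), 19 (GR starved), 24 (LSD1 fed), 7 (LSD1 starved), 0 (H3K9me1 starved) and 6 (H3K9me2 fed), and GR with LSD1 was left at 6 members in fed and 2 in starved muscle. In H3K9me1 starved 1.41% of all NM genes were called at this limit. GR with LSD1 made 6.74% and 2.25% of the members in fed and starved muscle, against 3.5% and 1.38% of all NM genes. With q-values of at most 1e-05, promoter counts were 3, 4, 1 and 0 in the 4 GR and LSD1 lists, 1 and 0 for H3K9me1 fed and starved and 1 for H3K9me2 fed, and GR with LSD1 was at 0 in both conditions. In the 4 GR and LSD1 lists these were 3.37%, 4.49%, 1.12% and 0%, against 1.44%, 1.26%, 0.143% and 0.0667% of all NM genes. For H3K9me1 fed and starved the shares of all NM genes were 0.019% and 0.0714%, and for H3K9me2 fed 0.0524%. The 1 member left in LSD1 fed, in H3K9me1 fed and in H3K9me2 fed was Rps29 each time, for which the caution on repeated sequence applies. These counts thus describe a single promoter and not the family. With lists of equal length, promoter counts were 22 (GR starved), 16 (LSD1 starved), 0 (H3K9me1 starved) and 1 (H3K9me2 fed), and GR with LSD1 in starved muscle was at 5. The shares of all NM genes were 13.7%, 7.55%, 1.13% and 1.12% in these lists. GR with LSD1 made 5.62% of the members, against 3.27%. With a promoter window of 1 kb on both sides, H3K9me1 starved gave 2 and GR with LSD1 in starved muscle 30. These were 2.25% and 33.7% of the members, against 6.0% and 16.6% of all NM genes. Within 30 kb, q-values of at most 0.01 gave 50 (GR starved), 48 (LSD1 fed), 27 (LSD1 starved), 17 (H3K9me1 fed) and 38 (H3K9me1 starved). Equal lengths gave 51 (LSD1 starved), 31 (H3K9me1 starved) and 14 (H3K9me2 fed). Leaving out promoter peaks gave 32 (GR fed) and 44 (LSD1 fed), or 36.0% and 49.4%, against 28.5% and 31.6% of all NM genes. Requiring the member's TSS to be the nearest gave 30 (GR fed), 15 (H3K9me1 fed), 25 (H3K9me1 starved) and 0 (H3K9me2 starved). These were 33.7%, 16.9%, 28.1% and 0% of the members, against 27.8%, 21.5%, 42.6% and 5.34% of all NM genes. Within 10 kb, H3K9me1 fed gave 15, H3K9me1 starved 27 and H3K9me2 starved 0. For the 10 kb counts, and for those within 30 kb at other q-values or equal lengths, no share of all NM genes was computed.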

Other observations

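At 13 ribosomal protein genes, or 14.6%, the promoter window also held the TSS of another NM gene, against 9.34% of all NM genes. Examples are Rpl15 with Nkiras1, Rpl9 with Lias, Rps18 with Vps52 and Rps28 with Ndufa7, a subunit of respiratory complex I. LSD1 in fed muscle had a peak at 11 of these 13 promoters, or 84.6%, against 55.0% of all such promoters. At the 76 members without another TSS, LSD1 in fed muscle was found at 41, or 53.9%, against 22.4%, and GR in starved muscle at 34, or 44.7%, against 22.9%.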
